A study of Drosophila melanogaster with 6 samples.

Results

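The heat shock proteins and their cognates were examined in whole testes of *Drosophila melanogaster* that lacked functional Zeus, against testes of a control injection line. The members were all genes of the deposited expression table whose symbol begins with Hsp and a digit or with Hsc70, together with Hsf. This rule took 22 of the 11491 genes in the table. Zeus, listed under the symbol Rcd-1r, is a young retrogene copy of Caf40 that is expressed in testis. The Zeus KO group held 3 libraries labelled Zeus-KO mutant, in which CRISPR-Cas9 had left frameshift indels in the Zeus coding sequence. The control group held 3 libraries labelled WT, from the control injection line. All libraries carried the same background strain, BDSC #25710, which has a germline nos-phiC31 integrase transgene, an attP2 landing site and y, sc, v and sev alleles on the X chromosome. Testes came from adult flies kept at 25 °C and were held in PBS for 1 to 2 days. Which library was held how long, the age of the flies and whether the KO libraries shared 1 line are not given in the sources used here. The labels speak of biological triplicates but name no separate cultures, so p-values measure the spread between these libraries.

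Heat shock proteins are chaperones that bind unfolded or partly folded proteins. The Hsp70 genes of flies are almost silent in unstressed cells and, like Hsp68, are switched on by the heat shock factor Hsf, a transcription factor that binds heat shock elements in their promoters. The Hsc70 cognates are constitutive relatives of Hsp70 that work in the cytosol, the endoplasmic reticulum and the mitochondrion. Hsp83 is the fly HSP90, the small heat shock proteins hold unfolded clients without using ATP, and Hsp60 forms the chaperonin of the mitochondrion. In testis, the Hsp60 family includes copies with roles in spermatogenesis, and Hsp60B is needed for male fertility.

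The values were reads normalized by library size factors, and the table held only the mean of each group. Each mean is a weighted sum of the whole reads of 3 libraries, and the reads of each library were solved from its digits for all 22 members. The solved libraries carry no replicate number, so they are named here by their size factor within a group: smallest, middle and largest. They held 10362953 to 15531471 solved reads. Zeus itself had 328.3, 268.8 and 269.0 normalized reads in the KO libraries, against 380.4, 337.7 and 318.7 in the control libraries, a log2 fold change of −0.26 (SE 0.131, limma, Benjamini-Hochberg adjusted p = 0.314). The KO alleles are indels, so their transcripts can still be counted, and this level does not check the labels. Testis markers were present in both groups. The summed germline markers ranged over 22751 to 25054 normalized reads in KO and 24919 to 26607 in control libraries, and the spermatid markers over 175406 to 215100 in KO and 180446 to 246118 in control. Markers of neighbouring tissues differed: accessory gland markers summed to 91765 to 130897 in KO and 150368 to 198736 in control, gut markers to 14631 to 17705 in KO and 28119 to 29353 in control, fat body markers to 1380 to 1600 in KO and 2397 to 2892 in control, and muscle markers to 27380 to 30751 in KO and 22257 to 26465 in control. These sums cover the markers measured: 13 of 13 germline, 12 of 14 spermatid, 14 of 15 accessory gland, 15 of 17 gut, 5 of 10 fat body and 15 of 18 muscle genes, none of them at 0 in a group. The markers of these lists that were not measured were not analysed here. Cyst cell and hub markers, with 5 of 5 measured, summed to 2011 to 2399 normalized reads in KO and 2165 to 2418 in control. The part of these tissues in the differences described here was not tested. In such bulk samples, fewer cells of a type and less RNA per cell cannot be told apart.

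A single heat shock gene passed the test, the inducible Hsp70Bb, which was higher in Zeus KO testes. A gene was called where limma, run on log2(normalized reads + 1) with a moderated variance, gave a Benjamini-Hochberg adjusted p under 0.05 over all 11441 genes tested and the fold change was at least 1.5. On this log scale the change of a gene with few reads is understated. All 22 members were tested, of which 1 was called higher and 0 lower, against 2.07% of all tested genes called higher and 1.89% called lower. An unadjusted p under 0.05 was found in 5 of the 22 members, Hsp70Ba, Hsp70Bb, Hsp70Bc, Hsp68 and Hsc70Cb, where 18.8% of all tested genes had one. All 5 were higher in KO, where 8.92% of all tested genes had such a p and were higher. KO and control libraries lay apart for 7 members that were higher in KO, namely Hsp70Ba, Hsp70Bb, Hsp70Bc, Hsp83, Hsc70Cb, Hsp60B and Hsp60C, where 11.5% of all tested genes were apart in this direction. For 1 member, Hsp60A, all KO libraries lay below all control libraries, where 12.0% of tested genes did so. The log2 fold change was above 0 in 16 members and below 0 in 6, and its median was 0.12 over the members and −0.00 over all tested genes. Without the Hsp70 copies, the remaining 18 members had a median of 0.07 and a range of −0.17 to 0.29, with 0 called. Of these 18, 2 had an unadjusted p under 0.05 in limma, beside the same 18.8% of all tested genes. Among the 18, 4 lay apart higher in KO and 1 lower, beside 11.5% and 12.0% of all tested genes. In the plot of fold changes by class, the Hsp70 copies other than Hsp70Bbb form a group of their own.

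**Figure D1:**
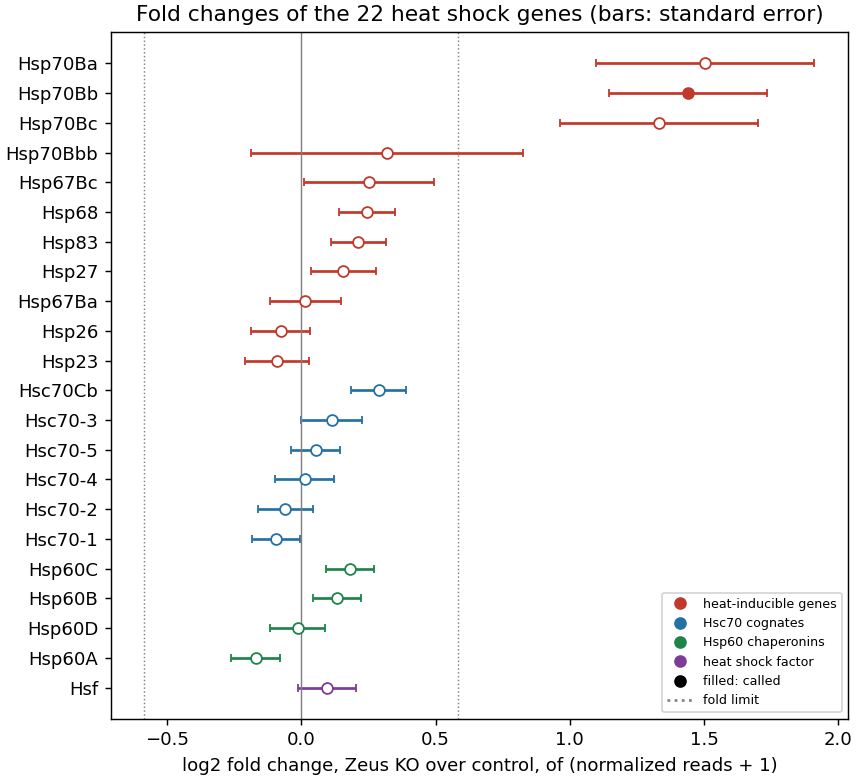
Log2 fold change, Zeus KO over control, of normalized reads + 1 for the 22 heat shock genes, by class (colour), with bars for the standard error from limma and dotted lines at a 1.5-fold change. Hsp70Bb is the filled, called point at 1.44; Hsp70Ba at 1.504 and Hsp70Bc at 1.33 lie beside it, and every gene other than the Hsp70 copies lies between −0.17 and 0.29.

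The 4 Hsp70 copies in the table, Hsp70Ba, Hsp70Bbb, Hsp70Bb and Hsp70Bc, encode the major heat-inducible Hsp70. They lie within 1 stretch of chromosome 3R in the dm6 assembly (Ensembl annotation release 115), and each is a single transcript with a single exon. Hsp70Ba occupies 12465453 to 12467776 on the minus strand. Hsp70Bbb (12502510 to 12504856), Hsp70Bb (12505793 to 12508139) and Hsp70Bc (12509076 to 12511461) follow on the plus strand with 936 bases between neighbours, and 34733 bases separate Hsp70Ba from Hsp70Bbb. The copies are near-identical, the reads were 50 bases long, and how reads that match more than 1 copy were counted is not given in the sources used here, so the split of reads among the copies is uncertain. The other heat-inducible copies, Hsp70Aa and Hsp70Ab, and Hsp22 were not analysed here.

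Hsp70Bb had 45.2, 65.3 and 51.5 normalized reads in the KO libraries of the smallest, middle and largest size factor, against 13.2, 25.7 and 20.2 in the control libraries in the same order. The lowest KO library was above the highest control library, and the means were 54.0 ± 10.3 in KO and 19.7 ± 6.28 in control (SD, n = 3 each). The log2 fold change was 1.44 (SE 0.295, limma, Benjamini-Hochberg adjusted p = 0.0152). These levels rest on 34, 61 and 58 reads in the KO libraries and 10, 20 and 19 in the control libraries. Hsp70Bb stayed higher but missed the threshold in 2 of the 6 fits that left 1 library out: without the KO library of the middle size factor the log2 fold change was 1.30 (limma, adjusted p = 0.0886), and with the smallest-factor control library left out it was 1.19 (limma, adjusted p = 0.0667).

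Hsp70Ba and Hsp70Bc had fold changes of similar size on fewer reads. Hsp70Ba had 15.9, 20.4 and 24.9 normalized reads in KO libraries, against 3.95, 7.70 and 8.53 in control libraries, where it rested on 3, 6 and 8 reads. Hsp70Bc had 18.6, 23.6 and 20.4 in KO libraries, against 9.21, 8.99 and 5.33 in control libraries. In both genes every KO library was above every control library. Neither passed the test after adjustment, with log2 fold changes of 1.504 (SE 0.408, limma, adjusted p = 0.0608) and 1.33 (SE 0.368, limma, adjusted p = 0.0651). Hsp70Bbb differed from them: its normalized reads were 15.9, 5.36 and 15.1 in KO libraries and 9.21, 12.8 and 5.33 in control libraries. Its groups overlapped, since the middle KO library was almost as low as the lowest control library, and its log2 fold change was 0.32 (SE 0.506, limma, adjusted p = 0.783).

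A sum over the copies does not depend on how counted reads were split among these 4, though reads shared with Hsp70Aa and Hsp70Ab, or left uncounted because they match several copies, would still change it. The summed Hsp70 copies held 95.7, 114.6 and 111.9 normalized reads in KO libraries, against 35.5, 55.2 and 39.4 in control libraries. Every KO library thus held more Hsp70 reads than every control library, from 72 to 126 reads in KO and 27 to 43 in control. The means of the sum were 107.4 ± 10.2 in KO and 43.4 ± 10.4 in control (SD, n = 3 each), a 2.47-fold difference, and 2.78-fold when Hsp70Bbb was left out of the sum, a choice made after the values were seen. Hsp70Bb gave 50.3% of the summed reads in KO and 45.4% in control, and Hsp70Bbb gave 11.3% in KO and 21.0% in control. The plot of the copies by library shows this gap beside the overlap of Hsp70Bbb.

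**Figure D2:**
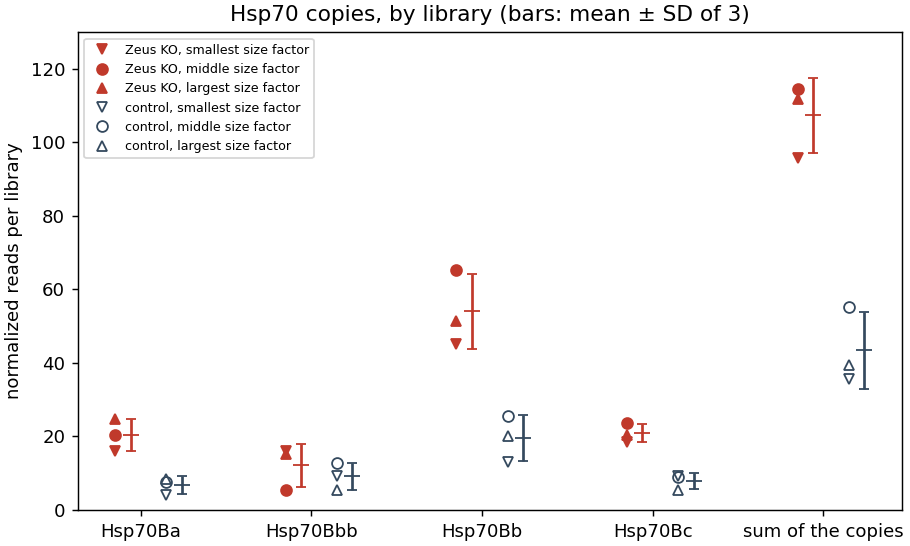
Normalized reads per library for each Hsp70 copy and for their sum, Zeus KO (filled red) beside control (open blue), with marker shape for the size factor of the library and bars for mean ± SD of 3 libraries. The groups lie apart for Hsp70Ba, Hsp70Bb, Hsp70Bc and the sum (95.7 to 114.6 in KO, 35.5 to 55.2 in control) and overlap for Hsp70Bbb.

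Among the other 7 inducible genes 1 had an unadjusted p under 0.05 in limma, beside 18.8% of all tested genes. Their log2 fold changes ran from −0.09 to 0.25, with a median of 0.16. None of the 7 passed limma's test, beside 2.07% of all tested genes called higher and 1.89% called lower. Hsp68, a heat-inducible relative of Hsp70 on another part of chromosome 3R (24055080 to 24057310), was the nearest to it. Hsp68 had 2849, 2883 and 2505 normalized reads in KO libraries, against 2145, 2238 and 2575 in control libraries. The KO library of the largest size factor lay below the highest control library, and the log2 fold change was 0.25 (SE 0.103, limma, adjusted p = 0.233). Exons of Hsp68 overlap CG6000 and a non-coding RNA on the other strand, and whether counting used strand is not given in the sources used here.

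Hsp83, the fly HSP90, lies on chromosome 3L (3192969 to 3197059) and is abundant without heat shock. It had 28731, 28833 and 27255 normalized reads in KO libraries, against 25928, 21672 and 25839 in control libraries. All KO libraries were above all control libraries, among which that of the middle size factor was the lowest, and the log2 fold change was 0.21 (SE 0.102, limma, adjusted p = 0.289). An exon of Hsp83 also overlaps CG14966 on the other strand. So do those of the small heat shock genes Hsp27, with CR43483, and Hsp67Ba, with asRNA:CR43481.

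The small heat shock genes Hsp23, Hsp26, Hsp27, Hsp67Ba and Hsp67Bc lie together on chromosome 3L, between 9371511 and 9385694. Their products share the alpha-crystallin domain, and several of them are expressed during development without heat. None of the 5 passed limma's test, 0 had an unadjusted p under 0.05, none had groups that lay apart, and their median log2 fold change was 0.01. Over all tested genes, 2.07% were called higher and 1.89% lower, and 18.8% had such a p. In KO 11.5% of all tested genes lay apart higher and 12.0% lower. Hsp26, the most abundant of the 5 per kb of exon, ranged over 4071 to 4835 normalized reads in KO and 4055 to 5047 in control libraries. Hsp27 ranged over 3974 to 5125 in KO and 3601 to 4420 in control, and Hsp23 over 1315 to 1596 in KO and 1302 to 1646 in control. Hsp67Ba and Hsp67Bc were low, with 195.4 to 220.2 normalized reads of Hsp67Ba in KO and 191.3 to 226.4 in control, and 71.8 to 113.7 of Hsp67Bc in KO and 56.6 to 97.6 in control. Their log2 fold changes were −0.09 for Hsp23, −0.08 for Hsp26, 0.16 for Hsp27, 0.01 for Hsp67Ba and 0.25 for Hsp67Bc, with limma adjusted p-values between 0.534 for Hsp27 and 0.971 for Hsp67Ba.

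None of the 6 Hsc70 cognates was called by limma, beside 2.07% of all tested genes called higher and 1.89% called lower. In limma 1 cognate had an unadjusted p under 0.05, beside 18.8% of all tested genes. The median log2 fold change of the cognates, 0.03, stood beside 0.25 for the 11 inducible genes. This difference between the classes was not tested, and without the Hsp70 copies the inducible median was 0.16. Hsc70Cb, annotated as Hsp110, is a relative of Hsp70 that serves it as a nucleotide exchange factor, and it had the largest fold change of the class. Hsc70Cb had 3833, 3804 and 3481 normalized reads in KO libraries, against 3053, 2697 and 3387 in control libraries. The groups lay apart, with the lowest KO library just above the highest control library, and the log2 fold change was 0.29 (SE 0.103, limma, adjusted p = 0.162).

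Hsc70-4, the main cytosolic cognate, had 29362, 30995.5 and 26693 normalized reads in KO libraries, against 30721, 25304 and 30489 in control libraries. Its groups overlapped almost fully, at a log2 fold change of 0.01 (SE 0.110, limma, adjusted p = 0.971). Hsc70-3, the BiP of the endoplasmic reticulum, had 13938, 13731 and 12711 in KO libraries, against 12916, 10592 and 14052 in control libraries. Here the control group held both the highest and the lowest library, and the log2 fold change was 0.11 (SE 0.113, limma, adjusted p = 0.642). Hsc70-5, the mitochondrial form, had 9379.9, 9796 and 8709.6 normalized reads in KO libraries, against 8725, 8647 and 9471 in control libraries. These groups overlapped too, at 0.05 (SE 0.0913, limma, adjusted p = 0.793). Hsc70-2 had 12157.5, 12799 and 10303 in KO libraries, against 12468, 11668 and 12503.5 in control libraries. Its control libraries all fell within the range of the KO libraries, at −0.06 (SE 0.103, limma, adjusted p = 0.795). Hsc70-1 ranged over 4955 to 5672 normalized reads in KO and 5637 to 5826 in control, at −0.09 (limma, adjusted p = 0.625).

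Among the 4 Hsp60 genes none was called by limma, beside 2.07% of all tested genes called higher and 1.89% called lower. In limma 0 of the 4 had an unadjusted p under 0.05, beside 18.8% of all tested genes. In KO 2 of the 4 Hsp60 genes lay apart upwards and 1 downwards, where 11.5% and 12.0% of all tested genes did so. Hsp60C (chromosome 2L, 5662849 to 5670838), a family member with a role in spermatogenesis, had 33789, 35779.9 and 34842 normalized reads in KO libraries, against 29876, 31163 and 31035 in control libraries. Hsp60B (2L, 728362 to 730564), a copy needed for male fertility, had 23447, 23864 and 23969 in KO libraries, against 21161, 22601 and 21239.5 in control libraries. Both genes were higher in every KO library than in any control library, with log2 fold changes of 0.18 (SE 0.0901, limma, adjusted p = 0.306) for Hsp60C and 0.13 (SE 0.0884, limma, adjusted p = 0.454) for Hsp60B. Hsp60A (X, 11108482 to 11112308), the widely expressed mitochondrial chaperonin, had 6201, 6905 and 6222 normalized reads in KO libraries, against 7673, 6925 and 7151 in control libraries. All KO libraries of Hsp60A were below all control libraries, the middle libraries by a narrow margin, at a log2 fold change of −0.17 (SE 0.0914, limma, adjusted p = 0.343). Hsp60D (2L, 13447538 to 13449497) overlapped between the groups, at 4733 to 5068 normalized reads in KO and 4265 to 5324 in control and a log2 fold change of −0.01 (limma, adjusted p = 0.961).

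A ratio of 2 genes within 1 library does not depend on the size factor. Per kb of exon, Hsp60C stood at 6.25, 5.94 and 6.42 times the level of Hsp60A in KO libraries, against 4.47, 5.16 and 4.98 times in control libraries. Hsp60B stood at 4.26, 3.89 and 4.34 times Hsp60A in KO libraries, against 3.10, 3.67 and 3.34 times in control libraries. Both ratios were higher in each KO library than in any control library. Hsp60C and Hsp60B lay apart upwards and Hsp60A downwards, so the ratios of both to Hsp60A had to lie apart and add no separate result. The ratio of Hsp60D to Hsp60A overlapped, at 0.867 to 1.03 in KO and 0.755 to 0.973 in control. These ratios were chosen after the values were seen and were not tested. Beside them, the summed germline and spermatid markers overlapped between the groups. Of 13 germline markers 4 lay apart lower in KO, where 12.0% of all tested genes did so. Of 12 spermatid markers 10 had a log2 fold change below 0 and 2 above it, where 5744 of 11441 tested genes were below 0. The spermatid median was −0.16, and 0 of the 12 lay apart between the groups. The sums of accessory gland, gut, fat body and muscle markers lay apart. The part of tissue and cell make-up in the Hsp60 ratios was not tested.

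**Figure D3:**
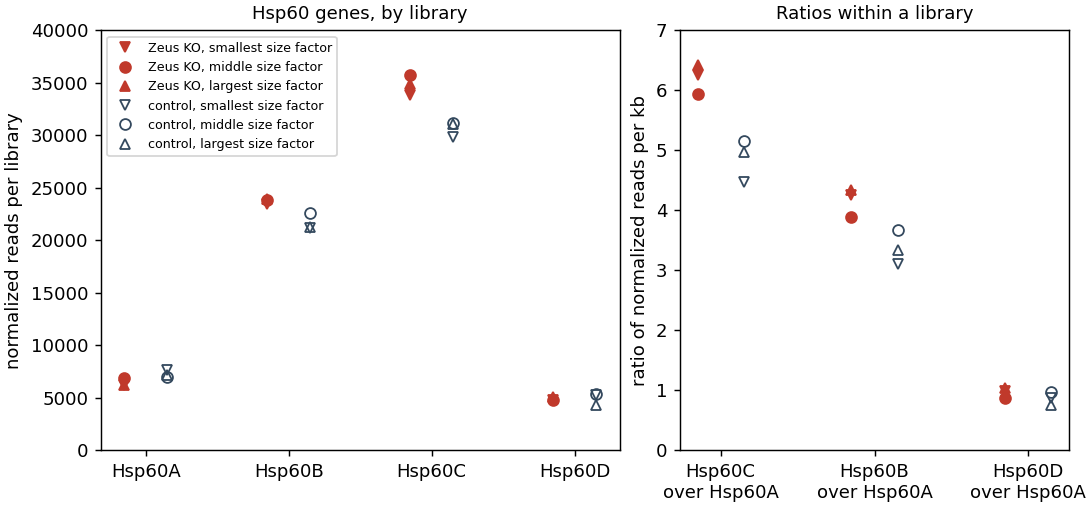
Left, normalized reads per library for the 4 Hsp60 genes; right, the ratio of normalized reads per kb of exon of Hsp60C, Hsp60B and Hsp60D to Hsp60A within each library, Zeus KO (filled red) beside control (open blue). The ratios of Hsp60C (5.94 to 6.42 in KO, 4.47 to 5.16 in control) and Hsp60B (3.89 to 4.34 in KO, 3.10 to 3.67 in control) lie apart, and those of Hsp60D overlap. The separation of the Hsp60C and Hsp60B ratios follows from the levels at left.

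Hsf, the factor that switches on the inducible genes, was itself close in both groups. It had 624.6, 693.0 and 613.6 normalized reads in KO libraries, against 612.0, 554.6 and 641.6 in control libraries. The groups overlapped, at a log2 fold change of 0.10 (SE 0.108, limma, adjusted p = 0.683). These values give the transcript of Hsf and not its activity.

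The members spanned a wide range of levels, and the testis-related Hsp60 copies led it. Per kb of exon, Hsp60C was the highest, with a mean of 16098 normalized reads in KO and 14196 in control. Hsp60B had 10785 in KO and 9835 in control, Hsc70-4 had 10684 in KO and 10618 in control, and Hsp83 had 9552 in KO and 8270 in control. The order of Hsp60B and Hsc70-4 is not fixed by these data, since their libraries overlap in both groups. The Hsp70 copies closed the order, from Hsp70Bb at 23.01 in KO and 8.39 in control to Hsp70Bbb at 5.17 in KO and 3.89 in control. The members together took 1.26% of normalized reads in KO and 1.14% in control. Of the members' reads, the Hsc70 cognates gave 39.3% in KO and 41.1% in control and the Hsp60 genes 37.8% in KO and 37.2% in control. The Hsp70 copies gave 0.0581% in KO and 0.0250% in control. The plot of levels by library places the separated Hsp70 copies at the low end of this range.

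**Figure D4:**
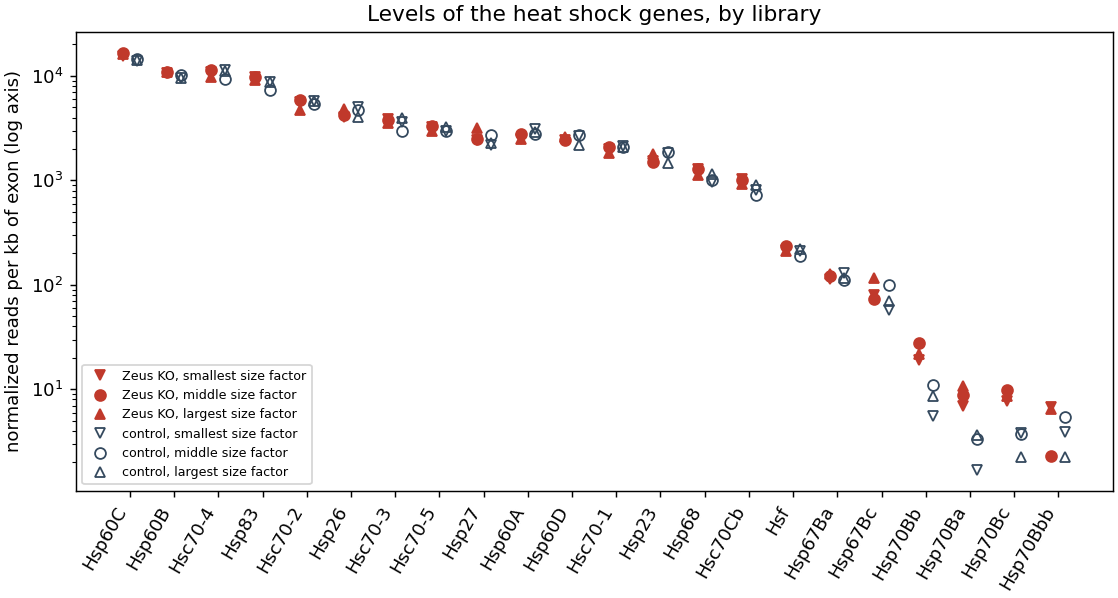
Normalized reads per kb of exon (log axis) of the 22 members in each library, Zeus KO (filled red) beside control (open blue), ordered by level, with marker shape for the size factor of the library. The highest gene is Hsp60C (means of 16098 in KO and 14196 in control), the Hsp70 copies are the lowest, and Hsp70Bb, Hsp70Ba and Hsp70Bc are the genes whose groups stand widest apart.

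The libraries of a group also differed among themselves. The KO library of the largest size factor was the lowest of its group for 9 members, Hsp68, Hsp83, Hsf and all 6 Hsc70 cognates. The same library was the highest for 8 members, among them all 5 small heat shock genes. In the control group the library of the middle size factor was the lowest for 10 members, again including all 6 cognates, Hsf and Hsp83. Of 3 libraries 1 is always the lowest, and the KO library of the smallest size factor was so for 9 members too. How often each library was the lowest or highest over all genes was not counted. The spread within a group differed in size between members, with a coefficient of variation from 1.16% for Hsp60B to 48.5% for Hsp70Bbb in KO and from 1.79% for Hsc70-1 to 41.2% for Hsp70Bbb in control. The plot of deviations from the group mean shows these differences by library.

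**Figure D5:**
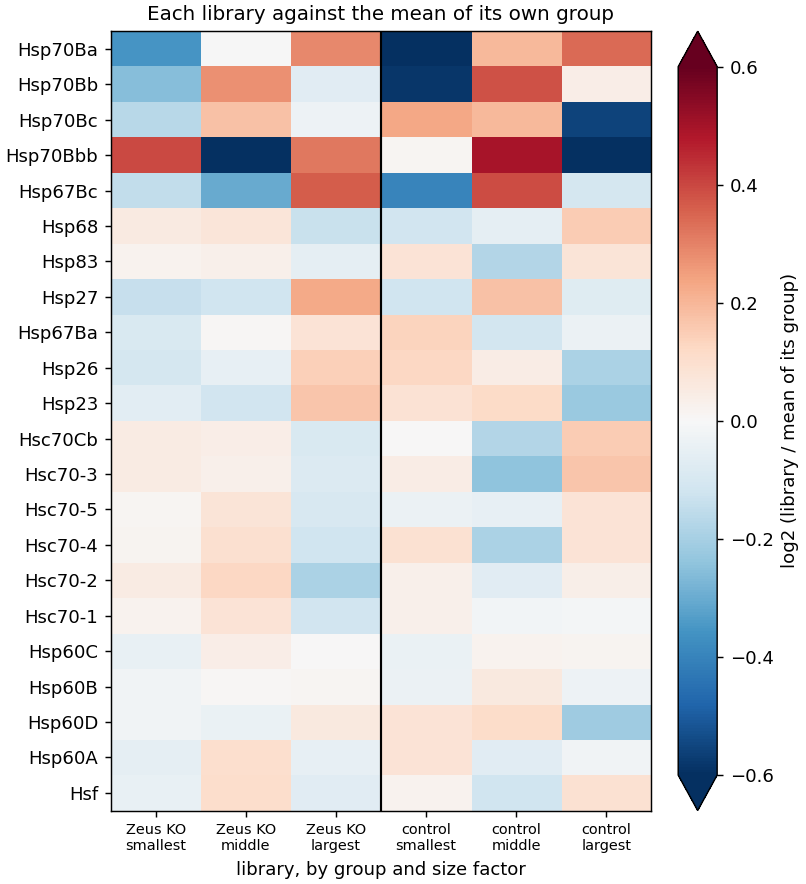
Log2 ratio of each library to the mean of its own group for the 22 members (rows) in the 3 Zeus KO libraries (left) and the 3 control libraries (right), each named by its size factor; red is above and blue below the group mean, and colours end at 0.6 in each direction. The cognate rows are blue in the KO library of the largest size factor, where the small heat shock rows are red.

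Chaperones work with partner proteins, and most of those measured did not pass the test. Of 36 HSP70 co-chaperones tested, which include the J-domain proteins that bring clients to Hsp70, 0 were called by limma. An unadjusted p under 0.05 in limma was found in 5 of the 36, where 18.8% of all tested genes had one. The median log2 fold change of the 36 was 0.02, in a range of −0.58 to 0.37. The list held 43 symbols, and those not tested were left out. Symbols listed numbered 15 for HSP90 co-chaperones, 20 for TRiC and prefoldin and 6 for other small heat shock genes. The 11 chaperones of the endoplasmic reticulum and mitochondrion had 0 calls by limma (1 at an unadjusted p under 0.05) and a median of −0.02. The 14 genes of the TRiC chaperonin and prefoldin had 0 calls by limma (0 at an unadjusted p under 0.05) and a median of 0.04. The 5 other small heat shock genes had 0 calls by limma (3 at an unadjusted p under 0.05, beside 18.8% of all tested genes) and a median of 0.01, with log2 fold changes from −1.21 to 0.46. The 10 HSP90 co-chaperones had log2 fold changes from −0.54 to 0.66. Of them 3 had an unadjusted p under 0.05 in limma, beside 18.8% of all tested genes. Limma called 1 of them higher, where 2.07% of all tested genes were, and 0 lower. The called gene was unc-45, which encodes a chaperone that works with HSP90 on myosin. It had 551.5, 452.0 and 447.5 normalized reads in KO libraries, against 309.3, 269.6 and 337.8 in control libraries. The groups lay apart, at a log2 fold change of 0.66 (SE 0.133, limma, adjusted p = 0.0138). The summed muscle markers were higher in KO as well, with 2 of 15 called higher and 1, Act79B, called lower, and their part in this difference was not tested.

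Of 14 other stress genes tested (19 symbols listed), 2 passed upwards and 1 downwards in KO, where 2.07% and 1.89% of all tested genes did so. An unadjusted p under 0.05 in limma was found in 6 of them, beside 18.8% of all tested genes. The median log2 fold change was −0.18. The metallothioneins MtnE and MtnD, which bind metals, were higher. MtnE averaged 105.0 ± 22.5 normalized reads in KO and 39.8 ± 14.2 in control (SD, n = 3 each), at a log2 fold change of 1.42 (limma, adjusted p = 0.0130). MtnD averaged 81.1 ± 17.4 in KO and 33.1 ± 1.06 in control (SD, n = 3 each), at 1.25 (limma, adjusted p = 0.00541). Thor, the 4E-BP that represses translation initiation, averaged 887.9 ± 12.6 in KO and 1395 ± 46.8 in control (SD, n = 3 each), at −0.65 (limma, adjusted p = 0.00118). In each of these 3 genes the KO and control libraries lay apart. The summed gut and fat body markers were lower in KO, as Thor was, although 2 of 15 gut markers and 1 of 5 fat body markers were called higher, beside 9 gut and 2 fat body markers called lower. Their part in the level of Thor was not tested.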

How the data were processed

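Poly(A) RNA of whole testes was sequenced in 50-base reads (12533272 to 18846182 per library). The authors aligned reads to dm6 with STAR, counted them with featureCounts and tested with DESeq2, edgeR and limma; versions, strand setting and annotation release are not given in the sources used here. The authors divided reads by DESeq2 size factors, and the deposited values are this normalized signal as 1 mean per group. The authors' columns of fold changes, p-values and calls were not used. The deposited FastQC summary gave read totals and lengths; 4 further numeric columns of it were not used.

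Because each mean is a sum over 3 libraries of whole reads times a weight, the reads of each library were solved from the digits of the means. All whole numbers were searched up to a mean of 10000; above it, each library was held within 1.5-fold of the mean, which applied to 6 members. The numerical tolerance was widened after a first result was seen. In all, 11451 genes (99.7%) had 1 solution in both groups, and the other 40 held 5.67% of normalized reads. Size factors were 0.752, 0.934 and 1.13 in KO and 0.760, 0.779 and 0.938 in control. The main test did not handle the solved reads as counts and used no count model. Among the alternatives, limma voom was run on the solved reads.

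Genes with a mean of at least 1 were tested on log2(value + 1) with limma 3.58.1 (trend, R 4.3.3), and p-values were adjusted by Benjamini-Hochberg over all 11441 genes; calls needed a 1.5-fold change and an adjusted p below 0.05. The solver and the test were tested on simulated data. Locations, exon lengths and overlaps came from Ensembl 115. Tables and plots used Python 3.11.15. The members and lists were chosen with earlier results of these data known. Values of each library are given for the called member, the 8 members with the most normalized reads (not per kb) and Zeus. Other members given by library, such as Hsc70Cb and Hsp68, were chosen after their values were seen. From other lists, up to 3 called genes are named. Alternatives changed the pseudocount, filter, scaling, model, fold limit and the libraries used, or summed the Hsp70 copies into 1 feature.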

Additional observations from a re-analysis of the deposited data

How the results depend on the processing

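The count of heat shock genes called was 1 under each alternative run other than those named here. Where the Hsp70 copies were summed into 1 feature, that feature took the place of Hsp70Bb as the 1 called, at a log2 fold change of 1.31. The count was 3 for limma without a trend, where Hsp70Ba (adjusted p = 0.0332) and Hsp70Bc (adjusted p = 0.0176) joined Hsp70Bb. It was 0 to 1 when 1 library was left out. The cause was not tested. Leaving out 1 library gave log2 fold changes of 1.19 to 1.65 for Hsp70Bb (limma, adjusted p = 0.0109 to 0.0886), 1.21 to 1.68 for Hsp70Ba, 1.11 to 1.45 for Hsp70Bc and 0.02 to 0.78 for Hsp70Bbb. The other settings gave 1.31 to 1.499 for Hsp70Bb (adjusted p = 0.0119 to 0.0277). Of 348 member values, 14 in 5 uncalled members changed sign. Quantile normalization gave 0.083 for Hsc70-2, −0.013 for Hsp67Ba and 0.056 for Hsp60D, and scaling to the total of solved reads gave 0.046 for Hsp60D. With 1 library left out, Hsc70-2 ranged over −0.125 to 0.031, Hsc70-3 over −0.0025 to 0.201, Hsp67Ba over −0.038 to 0.082, Hsp60D over −0.116 to 0.044 and Hsc70-4 over −0.080 to 0.071. Over all genes 453 were called, and 302 to 560 with 1 library left out. Scaling to the total moved the median of all genes to 0.06 and the share of calls that were higher in KO to 60.4%, with 291 higher and 191 lower. No paired analysis was possible because the libraries solved from group means carry no replicate number, and none was given to them from their depth. Depth limits the Hsp70 copies most, since Hsp70Ba rested on as few as 3 reads in a library.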
